A study of Mus musculus with 16 samples.

Results

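Tmem242 encodes an inner mitochondrial membrane protein that helps to assemble the ATP synthase, and its mRNA was more abundant in SNc dopaminergic neurons of MCU-KO mice than in those of control mice. To ask whether this rise was shared by other genes that build complex I and the ATP synthase, 10 assembly factor genes were followed through the RiboTag libraries, out of 25006 genes listed, of which 8016 had no count in any library. Tmem242 was chosen because of its difference between these same mice, selected on its small p and its fold change in MCU-KO against control, so its values in that comparison are a description and not a test. The other 9 genes were named for their role, namely Tmem70, Atpaf1 and Atpaf2 for the ATP synthase and Ndufaf2, Ndufaf4, Acad9, Ecsit, Timmdc1 and Tmem126b for complex I. All 10 were found by symbol, had counts in every library and passed the filter on low counts, which kept 12390 genes.

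The libraries came from 8 control mice with the genotype DAT-Cre+/- and 8 MCU-KO mice, which were also MCU fl/fl, with 1 library per mouse, all at postnatal day 45. Both groups carried Cre recombinase under the dopamine transporter gene and received an AAV with a Cre-dependent tagged ribosomal protein in the SNc. At 30 days after injection the tagged ribosomes were immunoprecipitated with the mRNA they held, so the counts report ribosome-associated mRNA pooled over the infected neurons of a mouse. Fewer cells and less RNA per cell cannot be told apart in such samples. Control mice were bred from DAT-Cre and C57/BL6 mice and MCU-KO mice from the floxed line, so that breeding and the deletion cannot be told apart in this comparison.

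Library totals lay between 14129527 and 22016362 counts, and the lowest belonged to MCU-KO mouse 8. Mcu, the deleted gene, had 454 ± 274 normalized counts (SD, n = 8; counts divided by size factors) in control and 200 ± 139 (SD, n = 8) in MCU-KO mice. The groups overlapped for Mcu, from 120.3 to 828 in control and from 5.82 to 410.1 in MCU-KO mice, and the counts cover the whole gene and not only the floxed exons. The log2 fold change of Mcu was −1.19 (95% confidence interval, CI, −2.41 to 0.04, adjusted p = 1.00, edgeR). The paper verified the deletion by other means, with qRT-PCR of Mcu in RiboTag mRNA and by a smaller mitochondrial Ca2+ response in the neurons. The summed level of 10 dopaminergic neuron markers was 13466 to 17496 CPM (counts scaled to library size) in control and 11642 to 19900 CPM in MCU-KO mice. Summed over 6 markers each, astrocyte levels were 326 to 659 CPM and 456 to 897 CPM, oligodendrocyte levels 2691 to 5298 CPM and 3172 to 6278 CPM, and microglia levels 47.5 to 134.2 CPM and 40.4 to 239.6 CPM, in the same order. The 4 GABA neuron markers summed to 147 to 324 CPM in control and 137 to 333 CPM in MCU-KO mice. None of these 32 markers passed an adjusted p of 0.05 (edgeR), where 0.178% of all genes tested did. Only 1 of them, the astrocyte gene Slc1a2, had an unadjusted p below 0.05 (edgeR), as had 4.41% of all genes tested. No defining marker was at 0 in every library, so transcripts of glial genes were present in both groups. Of the markers, 5 of 6 astrocyte, 5 of 6 oligodendrocyte and 5 of 6 microglia genes had a log2 fold change above 0. So had 3 of 4 GABA neuron and 4 of 10 dopaminergic neuron genes, and 50.4% of all genes tested. The median summed level of the microglia markers was 74.8 CPM in control and 134.2 CPM in MCU-KO mice. Their part in the results was not tested.

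Respiratory complexes are built stepwise from subunits of nuclear and mitochondrial origin, and assembly factors are proteins that hold intermediates together but leave before the complex is finished. The ATP synthase joins a soluble catalytic head to a ring of c subunits in the inner membrane. Complex I joins a matrix arm that oxidizes NADH to a membrane arm that pumps protons, and its membrane arm is assembled with the help of the MCIA complex, which contains Acad9, Ecsit and Tmem126b. SNc dopaminergic neurons spike continuously and rely on oxidative phosphorylation to do so.

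Tmem242 lies on the minus strand of chromosome 17, at 5410870 to 5440259 of GRCm38 (GENCODE M21), with 3 annotated transcripts, the longest of which has 4 exons. To show what the members share upstream of their starts, the 250 bases before each start were read from RefSeq (GRCm38.p6), where 8 of the 10 members had an entry. Windows were searched on both strands for the NRF1 palindrome (matched in Ndufaf4 as GCGCATGCGC), CCGGAAGT (the ETS motif bound by GABP), GGGCGG (SP1), CCAAT, ATGGCGGC (YY1) and TATAAA. NRF1 and GABP are known regulators of nuclear genes for respiratory chain proteins. The sequences of Tmem242 and of the members that hold the NRF1 and the GABP motif are given 5′ to 3′ along the gene, with matches in capitals.
Tmem242 (chr17:5440261-5440510, minus strand): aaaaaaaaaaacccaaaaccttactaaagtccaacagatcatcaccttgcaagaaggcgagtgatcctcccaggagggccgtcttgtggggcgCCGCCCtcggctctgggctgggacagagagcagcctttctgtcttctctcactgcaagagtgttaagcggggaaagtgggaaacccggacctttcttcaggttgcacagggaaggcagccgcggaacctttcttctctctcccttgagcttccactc
Ndufaf4 (chr4:24897833-24898082, plus strand): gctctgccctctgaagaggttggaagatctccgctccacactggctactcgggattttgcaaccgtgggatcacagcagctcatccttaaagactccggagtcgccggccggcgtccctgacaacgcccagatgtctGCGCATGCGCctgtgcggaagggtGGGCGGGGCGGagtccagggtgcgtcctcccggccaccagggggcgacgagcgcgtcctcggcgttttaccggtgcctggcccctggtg
Timmdc1 (chr16:38522664-38522913, minus strand): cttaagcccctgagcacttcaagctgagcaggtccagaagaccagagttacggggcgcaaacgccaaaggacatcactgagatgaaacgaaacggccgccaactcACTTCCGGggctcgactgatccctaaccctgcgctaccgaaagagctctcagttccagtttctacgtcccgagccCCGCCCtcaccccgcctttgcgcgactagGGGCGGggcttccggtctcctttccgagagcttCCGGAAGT
Tmem242 held a single match, to the SP1 letters on the opposite strand, starting 157 bases before its start. SP1 letters were in 7 of the 8 members with an entry and in 32.7% of all 32851 promoter windows, and CCAAT was in 5 of the 8 and in 33.8% of all windows. Members are counted per gene here and all promoters per window. The SP1 letters are all G or C. The windows of the members had 50.4% to 71.6% G and C, and the median of all promoters was 52.4%. The part of this content in the matches was not tested. The NRF1 motif was in Ndufaf4 alone among the members, and in 3.74% of all windows. The GABP motif was found at 2 places in Timmdc1 and in no other member, against 2.88% of all windows, while the YY1 and TATAAA letters were in no member, against 1.03% and 12.4%. A match is a run of letters and not a binding site.

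In control mice, Tmem242 had 1301 ± 313 normalized counts (SD, n = 8), with a lowest value of 779, a median of 1251 and a highest value of 1788. In MCU-KO mice it had 3058 ± 558 (SD, n = 8), with a lowest value of 2338, a median of 2967 and a highest value of 4066. Every MCU-KO mouse was above every control mouse, and the lowest MCU-KO value was 1.31 times the highest control value. The ratio of the means was 2.35 and the log2 fold change 1.23 (standard error 0.16). These are the values for which the gene was chosen. Among the 12390 genes tested, 11 were higher in MCU-KO at an adjusted p below 0.05 (0.0888%), and in 16 genes (0.129%) every MCU-KO mouse was above every control mouse. Of all genes tested, 300 had a higher log2 fold change than Tmem242, and the coefficient of variation of Tmem242 was 24.0% in control and 18.3% in MCU-KO mice.

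The transcripts annotated for Tmem242 hold 1787 different runs of 50 bases, of which 0 also occur in transcripts of another annotated gene on either strand. The 3 genes whose pattern was most like that of Tmem242, measured by the difference in log2 fold change over 16 libraries among genes that were higher in every MCU-KO mouse, were Gnb1, Ocel1 and Fam32a. Gnb1 had 6262 ± 1054 normalized counts (SD, n = 8) in control and 13343 ± 1993 (SD, n = 8) in MCU-KO mice. Ocel1 had 251 ± 73.3 and 655 ± 210, and Fam32a had 2787 ± 649 and 7895 ± 1207 (SD, n = 8 each). Gnb1 encodes a G protein β subunit, and none of the 3 is an assembly factor of the respiratory chain. Ocel1 (chr8:71371298-71379361) and Fam32a (chr8:72219730-72224418) lie near each other on chromosome 8, and Gnb1 lies on chromosome 4. The part of their position was not tested.

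**Figure D1:**
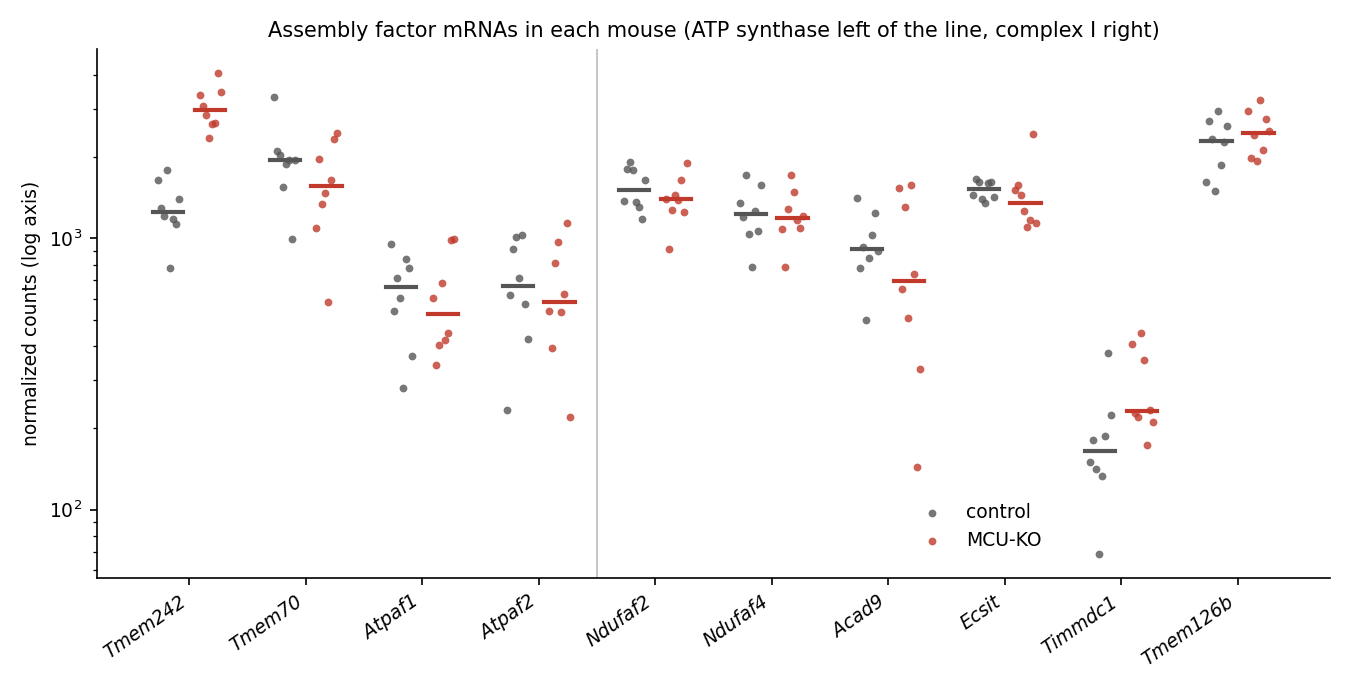
Normalized counts (log axis) of the 10 assembly factor genes in each of 8 control (gray) and 8 MCU-KO mice (red), with bars at the medians. Tmem242 is the gene whose groups do not overlap, with medians of 1251 and 2967, and the points of the other 9 genes overlap.

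No such difference passed the test in the other ATP synthase assembly factors. Tmem70 (chr1:16665207-16678275, plus strand) acts with Tmem242 on the c ring. It had normalized counts of 993 (lowest), 1954 (median) and 3336 (highest) in control mice and of 582, 1556 and 2440 in MCU-KO mice. Only MCU-KO mouse 5 was below all control mice, and the groups otherwise overlapped. The log2 fold change of Tmem70 was −0.30 (95% CI −0.80 to 0.21, adjusted p = 1.00, edgeR).

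Atpaf1 (chr4:115784812-115818828, plus strand) and Atpaf2 (chr11:60400626-60418457, minus strand) are chaperones of the β and α subunits of the catalytic head. Atpaf1 had 281, 659 and 950 normalized counts in control and 341, 526 and 999 in MCU-KO mice (lowest, median and highest), and its log2 fold change was −0.06 (95% CI −0.67 to 0.56). Atpaf2 had 234, 669 and 1033 in control and 219, 584 and 1139 in MCU-KO mice, and its log2 fold change was −0.07 (95% CI −0.76 to 0.61). For both genes nearly the whole range of one group was covered by the other, and the adjusted p was 1.00 (edgeR). The direction of these small values changed when single mice were left out, to between 0.00 and 0.05 for Atpaf1 and between 0.01 and 0.06 for Atpaf2. Of the transcript stretches of Atpaf1, 21.7% also occur in the processed pseudogene Gm14117, so reads of the gene may have been lost or shared there.

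Among the complex I factors, Ndufaf2 (chr13:108002715-108158623, minus strand) and Ndufaf4 (chr4:24898083-24905001, plus strand) act on the matrix arm, Ndufaf2 late and Ndufaf4 early. Ndufaf2 had 1175, 1512 and 1912 normalized counts in control and 917, 1394 and 1899 in MCU-KO mice, and its log2 fold change was −0.14 (95% CI −0.47 to 0.18). Of its transcript stretches, 64.1% lie on the opposite strand of the long noncoding RNA gene B230220B15Rik, and the strand setting of the counting is not given, so reads of both cannot be told apart. Ndufaf4 had 784, 1231 and 1707 normalized counts in control and 784, 1187 and 1716 in MCU-KO mice, which is nearly the same range. Its log2 fold change was −0.02 (95% CI −0.40 to 0.36), and it turned to between 0.00 and 0.06 when each of 4 mice was left out.

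Ecsit and Acad9 differed in spread between the groups. Ecsit (chr9:22072246-22085438, minus strand), a scaffold protein of the MCIA complex, had 1356, 1519 and 1657 normalized counts in control and 1098, 1351 and 2420 in MCU-KO mice, and the highest value was that of MCU-KO mouse 7. In 4 MCU-KO mice Ecsit was below every control mouse and in 1 it was above, and its coefficient of variation was 7.93% in control and 29.6% in MCU-KO mice, while the log2 fold change was −0.06 (95% CI −0.39 to 0.27). Without MCU-KO mouse 7, left out after its value was seen, the coefficient of variation of Ecsit in MCU-KO mice was 14.7% (n = 7) and its log2 fold change −0.20. Acad9 (chr3:36065979-36092853, plus strand), a flavoprotein related to acyl-CoA dehydrogenases, had 501, 913 and 1404 normalized counts in control and 144, 695 and 1576 in MCU-KO mice, with coefficients of variation of 29.3% and 65.2%. The log2 fold change of Acad9 was −0.17 (95% CI −0.92 to 0.58), and it was −0.40 with limma-voom and −0.01 without MCU-KO mouse 7. The differences in spread were not tested. Of the transcript stretches of Ecsit, 21.9% also occur in other annotated genes, mostly in Gm16845 on the opposite strand, and of those of Acad9 14.6% do.

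Tmem126b (chr7:90467438-90476001, minus strand), an inner membrane protein of the MCIA complex, had 1497, 2291 and 2943 normalized counts in control and 1931, 2452 and 3232 in MCU-KO mice, and its log2 fold change was 0.16 (95% CI −0.16 to 0.48). Timmdc1 (chr16:38498347-38522663, minus strand), which helps to build the membrane arm, was the least abundant member and the one whose fold change came closest to that of Tmem242. It had 68.8, 165 and 377 normalized counts in control and 173, 230 and 447 in MCU-KO mice. All 8 MCU-KO mice were above the control median and 2 were above every control mouse, but control mouse 7 exceeded 6 of the MCU-KO mice. Its log2 fold change was 0.64 (95% CI −0.24 to 1.51, unadjusted p = 0.145, adjusted p = 1.00, edgeR), an interval that includes both 0 and the value of Tmem242.

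**Figure D2:**
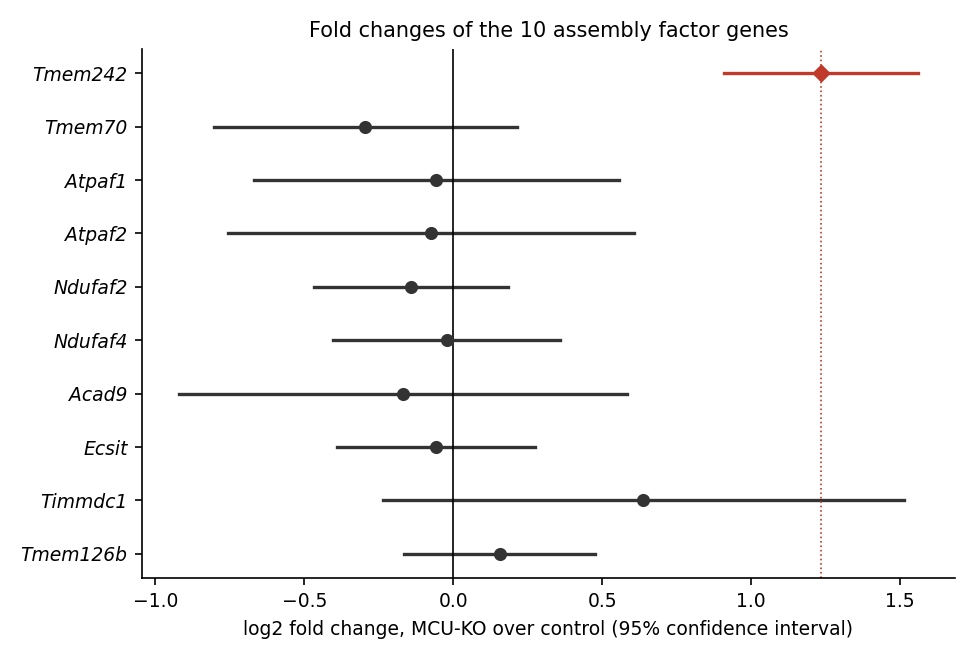
Log2 fold change of MCU-KO over control (horizontal axis) with its 95% confidence interval for each of the 10 genes, Tmem242 as a red diamond and its value as a dotted line. The intervals of the other 9 genes include 0, and that of Timmdc1 alone reaches the value of Tmem242.

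Of the 9 members other than Tmem242, 0 had an adjusted or an unadjusted p below 0.05 (edgeR, quasi-likelihood, adjusted by Benjamini-Hochberg over 12390 genes), where 0.178% and 4.41% of all genes tested did. DESeq2 called 0 of the 9 as well, and 0.404% of all genes. Their median log2 fold change was −0.06, that of all genes tested was 0.00, and 2 of the 9 were higher and 7 lower in MCU-KO mice, where 50.4% of all genes tested were higher. For 8 of them the 95% CI stayed between −1 and 1, and for 8 its upper end was below the 1.23 of Tmem242, Timmdc1 being the exception in both. That 1.23 has a 95% CI of 0.91 to 1.56 and belongs to a gene chosen for its difference, so it may be too high as a mark. Smaller differences were not resolved with 8 mice per group.

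The same comparison was extended to a list of assembly factors of complexes I to IV and of the ATP synthase. Of 57 such genes tested, the 10 members included, 1 had an adjusted p below 0.05, and this was Tmem242. Of the 47 that are no members, 20 were higher and 27 lower, where 50.4% of all genes tested were higher. In these 47, 0 passed the adjusted threshold and 1 had an unadjusted p below 0.05 (edgeR), against 0.178% and 4.41% of all genes tested. The median log2 fold change of the 47 was −0.04. The highest value was that of Tmem177, a factor in the assembly of complex IV subunit 2, with 172 ± 120.1 normalized counts (SD, n = 8) in control and 357 ± 215 (SD, n = 8) in MCU-KO mice. Its log2 fold change was 1.05 (95% CI −0.04 to 2.14, adjusted p = 1.00, edgeR). The lowest was that of Lyrm7, which acts in complex III maturation, at −0.65 (95% CI −1.42 to 0.13).

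Within complex I, 19 assembly factors were tested, 8 higher and 11 lower, with a median log2 fold change of −0.02. The lowest was Ndufaf7 at −0.36 (95% CI −0.83 to 0.11), a methyltransferase of a complex I subunit, and the smallest unadjusted p was 0.0822 for Dmac2 (edgeR), whose log2 fold change was −0.33. Tmem126a, the paralog of Tmem126b, had a log2 fold change of −0.05 (95% CI −0.39 to 0.29). The remaining ATP synthase factor, Fmc1, had 1822 ± 239 normalized counts (SD, n = 8) in control and 1796 ± 409 (SD, n = 8) in MCU-KO mice, and its log2 fold change was −0.02 (95% CI −0.33 to 0.29). Among 4 factors of complex II, Sdhaf2 was the gene with the unadjusted p below 0.05 (log2 fold change −0.31, unadjusted p = 0.0463, adjusted p = 1.00, edgeR), and Sdhaf3 was the highest at 0.28. Among 6 factors of complex III the highest was Bcs1l at 0.15, and among 23 factors of complex IV the lowest was Coa5 at −0.48.

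The subunits that these factors assemble gave fold changes over a narrower range. As a group they were also more abundant than the factors (levels under Other observations), and the part of abundance in this range was not tested. Of 17 nuclear ATP synthase subunits tested, 3 were higher and 14 lower, with log2 fold changes from −0.14 (Atp5d) to 0.12 (Usmg5), and of 36 complex I subunits, 8 were higher and 28 lower, from −0.27 (Ndufa3) to 0.10 (Ndufb5). None of these 53 subunits passed the adjusted threshold, and 1, Ndufa3, had an unadjusted p below 0.05 (unadjusted p = 0.0454, adjusted p = 1.00, edgeR). Of all genes tested, 0.178% passed the adjusted threshold, 4.41% had an unadjusted p below 0.05 and 50.4% were higher. The directions of the subunits were not tested as a set. The c subunits, on whose ring Tmem242 and Tmem70 act, are encoded by Atp5g1, Atp5g2 and Atp5g3, chosen here for that role after the values were seen. Their log2 fold changes were −0.13, −0.08 and −0.05, and each 95% CI lay between −0.50 and 0.34. The median log2 fold change was −0.06 in both lists. The 13 mitochondrially encoded genes were listed with 0 counts in every library and were not tested.

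**Figure D3:**
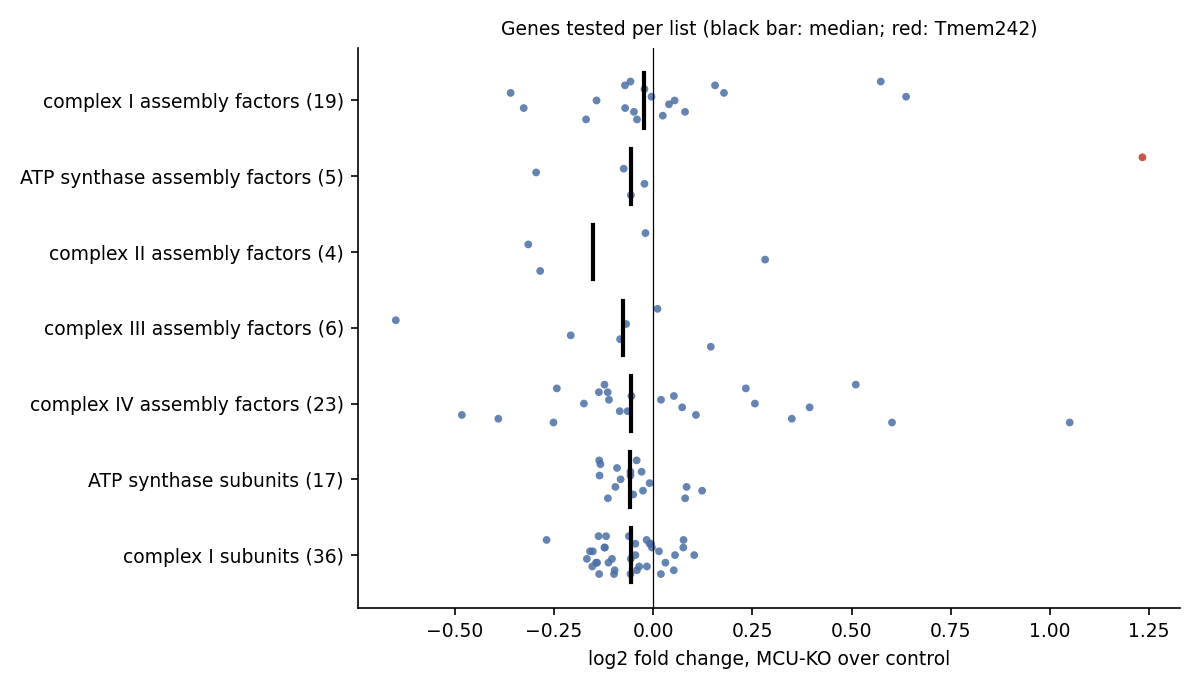
Log2 fold change of MCU-KO over control (horizontal axis) for each gene tested in 5 lists of assembly factors and 2 lists of subunits, with the number of genes in brackets and black bars at the list medians. Tmem242 (red) lies at 1.23, the list medians lie between −0.15 and −0.02, and the next highest point is Tmem177 at 1.05.

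The order of levels in control mice was not used to choose the genes, although the control values of Tmem242 entered the difference that chose it. Levels are given as CPM per kb of exon, since longer transcripts yield more reads. Tmem70 was highest with 56.3 ± 18.7 CPM per kb (SD, n = 8), followed by Tmem242 with 36.8 ± 8.73, Ecsit with 31.6 ± 2.58, Ndufaf2 with 27.0 ± 4.77 and Tmem126b with 24.4 ± 5.77 (SD, n = 8 each). Ndufaf4 and Atpaf2 had 16.6 ± 3.96 and 16.8 ± 6.92 CPM per kb (SD, n = 8), in that order by the mean of the log2 levels. Atpaf1 with 9.15 ± 3.35, Acad9 with 6.05 ± 1.78 and Timmdc1 with 5.33 ± 2.66 CPM per kb (SD, n = 8 each) were lowest.

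Neighbors in this order were not separated after adjustment. Of 9 pairs of neighbors compared within mice, 0 had an adjusted p below 0.05 and 4 had an unadjusted p below 0.05 (exact sign-flip permutation test, two-sided, with Benjamini-Hochberg adjustment over the 9 pairs). The smallest adjusted p was 0.0879, and 8 mice allow no unadjusted p below 0.0078. Tmem70 exceeded Tmem242 in 6 of 8 control mice, by 0.58 ± 0.53 on the log2 scale (SD, n = 8, unadjusted p = 0.0312 and adjusted p = 0.0879, exact sign-flip permutation test). Since the control values of Tmem242 entered the difference that chose it, the p of this pair is a description. With the length of the longest transcript in place of all exons, which shortens Tmem242 from 1.84 kb to 948 bases, Tmem242 exceeded Tmem70 in 6 of 8 control mice instead. By that length Tmem126b (39.9 CPM per kb) was also above Ndufaf2 (33.4), Atpaf2 (19.8) above Ndufaf4 (17.8) and Acad9 (12.6) above Atpaf1 (12.4), so the order within these pairs depends on the length used. Lower in the order, Tmem242 exceeded Atpaf1, Atpaf2, Ndufaf4, Acad9 and Timmdc1 in 8 of 8 control mice. In MCU-KO mice, Tmem242 had 86.5 ± 15.7 CPM per kb (SD, n = 8) and exceeded each of the other 9 members in 8 of 8 mice, a description since its level there chose it.

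**Figure D4:**
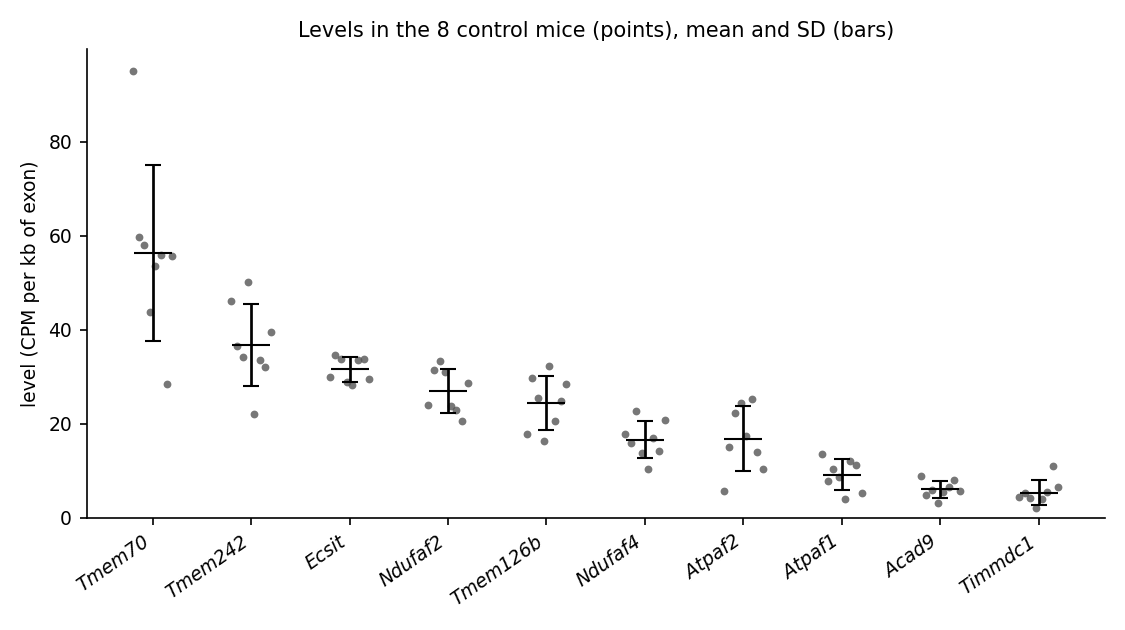
Levels in CPM per kb of exon (vertical axis, from 0) of the 10 genes in the 8 control mice, ordered from high to low, with points for mice and bars for mean and SD. Tmem70 (56.3) and Tmem242 (36.8) are at the top and Acad9 (6.05) and Timmdc1 (5.33) at the bottom, with overlap between neighbors.

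To see whether the rise extended along chromosome 17, the genes that start within 1 Mb of Tmem242 were examined, of which 10 passed the filter on low counts. None of them had an adjusted p below 0.05 and 1 had an unadjusted p below 0.05 (edgeR), against 0.178% and 4.41% of all genes tested. Of these neighbors, 7 were higher and 3 lower, where 50.4% of all genes tested were higher. The median log2 fold change of the neighbors was 0.15. The nearest, Zdhhc14, a palmitoyltransferase gene that starts 52.3 kb away, had 308 ± 245 normalized counts (SD, n = 8) in control and 453 ± 201 (SD, n = 8) in MCU-KO mice. Its log2 fold change was 0.55 (95% CI −0.41 to 1.52). Snx9, Arid1b and Synj2 followed at 401, 446 and 501 kb, with log2 fold changes of 0.46, 0.30 and 0.05 and 95% confidence intervals that include 0. Among the neighbors tested, Arid1b alone starts at a lower coordinate than Tmem242, so that side rests on a single gene. Serac1 and Gtf2h5 start 639 and 640 kb away, with log2 fold changes of −1.08 (95% CI −3.39 to 1.23) and −0.13 (95% CI −0.34 to 0.08).

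The exception lay at the edge of this window and was chosen after its values were seen. Dynlt1b, 990 kb away, encodes a dynein light chain and had 43.9 ± 22.5 normalized counts (SD, n = 8) in control and 140 ± 31.1 (SD, n = 8) in MCU-KO mice. Its highest control value was 71.4 and its lowest MCU-KO value 110.6, so that the groups did not overlap, as in 0.258% of all genes tested in either direction. The log2 fold change was 1.67 (95% CI 0.27 to 3.08, unadjusted p = 0.0219, adjusted p = 1.00, edgeR). Dynlt1b belongs to a family of nearly identical copies, among which the counting may have split reads, and Dynlt1a had a log2 fold change of 0.01 (95% CI −1.52 to 1.54). On the whole of chromosome 17, 2 of 600 genes tested had an adjusted p below 0.05, against 0.178% of all genes, and these were Atp6v0c and Tmem242, which was chosen for its p.

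**Figure D5:**
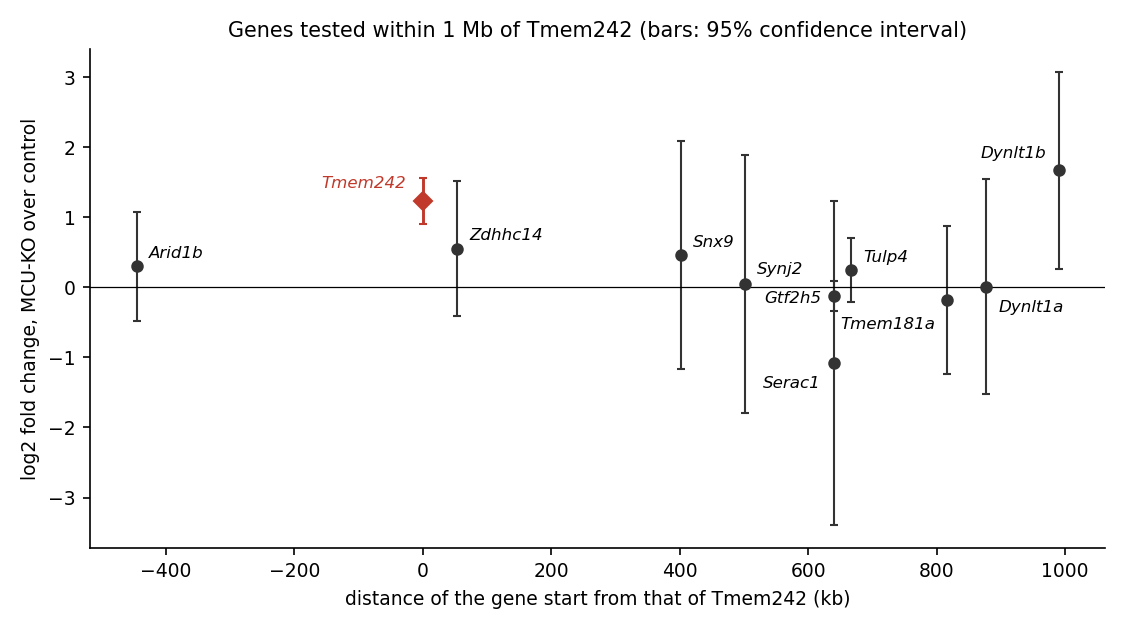
Log2 fold change of MCU-KO over control with its 95% confidence interval (vertical axis) against the distance of the gene start from that of Tmem242 in kb for the 10 genes tested within 1 Mb and for Tmem242 (red diamond). The intervals of 9 of the 10 neighbors include 0, and Dynlt1b at 990 kb is the exception.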

How the data were processed

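The authors trimmed adapters, ran STAR against the mm10 genome and used htseq-count with Ensembl genes, and the deposited files hold these whole-number counts, 1 file per mouse. Trim Galore is named in the submitters' processing notes, and tool versions and the strand setting are not given in the sources used here. Symbols and coordinates came from GENCODE M21 (GRCm38, 24991 of 25006 identifiers matched). Groups were compared with edgeR 4.0.16 in R 4.3.3 (filterByExpr, TMM, glmQLFit, glmQLFTest) with Benjamini-Hochberg adjustment. Normalized counts are counts divided by DESeq2 1.42.0 size factors. 3 counts, the smallest amount taken as detectable, equal 2.61 to 4.14 normalized counts, and such limits cover counting error only. Control mouse levels used log2(CPM per kb + 0.1). Alternatives used DESeq2, limma 3.58.1, other normalizations and filters, a block for the mouse number and the omission of each mouse. The members, lists and tests were chosen with earlier results of these data known. Genes were named by rule: members, Mcu, genes sharing sequence with members, list genes with the smallest p or the highest or lowest fold change, the 6 nearest neighbors and the 3 most like Tmem242. Atp5g1 to Atp5g3, Dynlt1a, Dynlt1b, Tmem126a, Fmc1, Slc1a2, Atp6v0c and the genes named for their levels fall outside it and were chosen after their values were seen. Same-numbered mice are different animals.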

Additional observations from a re-analysis of the deposited data

Results flagged for a closer look

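In 3 of 32 groups of 8 libraries examined (each member in each genotype, summed marker lists and library totals), 1 library lay apart from the rest, where chance sets apart about 1 in 20 groups. Tmem70 had 3336 normalized counts in control mouse 1, and the next control mouse had 2097. Ecsit had 2420 normalized counts in MCU-KO mouse 7, and the next MCU-KO mouse had 1574. MCU-KO mouse 8 had a total of 14129527 counts, and the next MCU-KO library had 19897268.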

How the results depend on the processing

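The log2 fold change of Tmem242 lay between 1.16 and 1.31 in all 23 alternatives. Of 230 recomputed fold changes of the 10 members, 216 kept direction and side of the threshold. The other 14 changed sign, each with 1 mouse left out: Atpaf1 (0.0018 to 0.0523, without control mouse 1 or 6 or MCU-KO mouse 2, 3, 5 or 6), Atpaf2 (0.0060 to 0.0581, without control mouse 4 or 6 or MCU-KO mouse 2 or 8) and Ndufaf4 (0.0046 to 0.0578, without control mouse 3 or 8 or MCU-KO mouse 1 or 2). The number of members called (1), of genes called in the wider assembly factor list (1) and of neighboring level pairs separated (0) was the same in every alternative run for them. The gene called was Tmem242 each time. It was chosen for its p and fold change in these same libraries, so its stability here is a description and not a test. The 22 genes called over all genes became 50 with DESeq2 and 14 with the mouse number as a replicate block. With this block the log2 fold change of Tmem242 was 1.25. Same-numbered mice had correlations of deviations from −0.061 to 0.031, 0 of 8 over 0.1. No strong shared effect of the number was seen, but the labels do not say whether same-numbered mice were handled together. Over all mice left out in turn, the log2 fold change ranged from −0.189 to 0.0523 for Atpaf1, from −0.238 to 0.0581 for Atpaf2 and from −0.106 to 0.0578 for Ndufaf4, and 18 to 24 genes were called. Timmdc1 had the lowest count of any member, 79 in its lowest library, and the part of depth in its spread was not tested. Among the members that kept their direction, the log2 fold change lay over all 23 alternatives between −0.40 and −0.01 for Acad9 (−0.40 with limma-voom and with the block, −0.34 and −0.35 without MCU-KO mouse 1 or 5, −0.01 without MCU-KO mouse 7), between −0.20 and −0.0046 for Ecsit (without MCU-KO mouse 7 or 5), between −0.40 and −0.14 for Tmem70 (without MCU-KO mouse 8 or control mouse 1), between −0.21 and −0.07 for Ndufaf2, between 0.09 and 0.22 for Tmem126b and between 0.51 and 0.88 for Timmdc1.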

Other observations

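In control mice, the subunits were more abundant than the factors that assemble them, as levels in CPM per kb of exon. The median level was 307 CPM per kb over 17 ATP synthase subunits and 351 CPM per kb over 36 complex I subunits, against 36.8 CPM per kb over 5 ATP synthase assembly factors and 26.5 CPM per kb over 19 complex I assembly factors. With all exons as the length, the ranges overlapped, and the lowest ATP synthase subunit was Atp5l with 3.57 CPM per kb. These levels were not recomputed with the longest transcript, and sequence shared with other genes was not examined for the subunits. Among the members the order of several pairs changed with the length used, so single values may depend on it. Atp5l also had the lowest mean of the 17 ATP synthase subunits before division by length, with 442 ± 79.1 normalized counts (SD, n = 8) in control mice. Fmc1 was the highest ATP synthase factor with 137 CPM per kb, Lyrm2 the highest complex I factor with 94.1 CPM per kb, and Ndufs1 the lowest complex I subunit with 17.0 CPM per kb. Among the other complexes, Coa3 (490 CPM per kb), a complex IV factor, and Uqcc2 (479 CPM per kb), a complex III factor, were at the level of the subunits. These medians are descriptions over genes and were not tested.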
